A study of Mus musculus with 34 samples.

Results

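The genes described here are 9 members of the p53 and senescence network, chosen by symbol with earlier results of these data known, out of 49069 genes listed in at least 1 of 5 deposited expression tables. They are Cdkn1a, Cdkn2a, Cdkn2b, Trp53, Mdm2, Ccng1, Bax, Bbc3 and Gdf15. All 9 had a row in all 5 tables, and all 9 passed the filter on low values in every comparison with a test. The tables hold poly-A RNA sequencing of 34 mouse libraries from a study that used chemicals to take fibroblasts through a state resembling extraembryonic endoderm, the tissue that lines the yolk sac (XEN-like cells), and on to neuronal or hepatocyte-like cells. The strain was Mapttm2(EGFP)Klt/J, a Tau-EGFP reporter line in which the green protein is made from the gene of the neuronal protein Tau, in every group except the primary neurons, which were C57BL/6. No other allele is named in the labels.

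The XEN-like table holds 2 libraries of embryonic fibroblasts, 8 of XEN-like colonies, 3 of the line F25 at passages 5, 8 and 13, 2 of the line s39 at passages 3 and 17, and 1 library called eXEN at passage 8, which the labels describe both as embryonic XEN cells and as chemically derived. The hepatic table holds 2 libraries of embryonic fibroblasts, 4 of hepatocyte-like cells made from the XEN-like state, 2 of hepatocytes and 2 of hepatic tissue. The first neuronal table holds 1 library each of embryonic fibroblasts, Tau-EGFP-positive (TauEGFP) colonies, neuronal cells induced by the mixture FICB, primary cortical neurons and brain. The second neuronal table holds 1 library of TauEGFP colonies from XEN-like cells at passage 2 and 1 labelled primary neurons, and the last table holds 1 library labelled P24, for neuronal cells from XEN-like cells. F25 and s39 are single lines, so their libraries are samplings of 1 line each. Nothing in the labels ties libraries to animals or separate cultures, and p-values therefore measure the spread between libraries, which may be technical.

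The p53 protein, encoded by Trp53, is a transcription factor that is held at a low level by the ubiquitin ligase Mdm2 and is stabilised by DNA damage and other stress. Its targets include Cdkn1a, whose product p21 inhibits cyclin-dependent kinases (CDKs), Mdm2 itself, which closes a negative feedback loop, and the death genes Bax and Bbc3. The Cdkn2a and Cdkn2b genes lie side by side and encode inhibitors of the kinases that inactivate the retinoblastoma protein, and Cdkn2a also encodes p19Arf, which restrains Mdm2 from a different reading frame. The 3 inhibitor genes are classical marks of senescent cultured fibroblasts, and this locus and p53 are known as barriers to the reprogramming of fibroblasts.

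In mm10, Cdkn2a covers chromosome 4 from 89274471 to 89294653 and Cdkn2b covers chromosome 4 from 89306299 to 89311039, both on the minus strand, with 11645 bp between them. Cdkn1a lies on chromosome 17 from 29090976 to 29100727 on the plus strand, and Trp53 on chromosome 11 from 69580359 to 69591873 on the plus strand. The levels are per gene, so that p16Ink4a and p19Arf, which are read from different first exons of Cdkn2a, are not separated. In the annotation, 354 bp of Cdkn1a exons overlap an antisense gene and 357 bp of Bax exons overlap another gene model on the same strand, and whether the counting used strand is not given in the sources used here, so these levels may hold fragments of the neighbours.

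Promoters are shown because p53 acts through its binding sites and because Cdkn1a, Cdkn2a and Cdkn2b were called lower in the colonies described below. For Cdkn2a the groups overlapped, and the call did not hold under every setting. All 9 genes matched RefSeq windows of 300 bases on GRCm38.p6 (250 before to 50 after a transcription start), 14 windows in all. The half-site of the p53 binding motif (3 purines, C, 2 bases that are A or T, G, then 3 pyrimidines) was searched without mismatches. Both strands were covered, since they are equivalent for this palindromic motif. The half-site was found in 1 window each of 5 of the 9 genes. Counted by window, 5 of the 14 held it, beside 8.36% of all 32851 RefSeq windows. No test is attached, since the members were picked as genes of the p53 and senescence network. The stretches around the matches, all before the start, follow with the half-sites in capitals.
Cdkn1a, upstream start, chr17:29090886-29090957, plus strand: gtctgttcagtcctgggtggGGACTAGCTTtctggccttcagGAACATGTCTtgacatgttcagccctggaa
Mdm2, chr10:117710915-117710964, minus strand: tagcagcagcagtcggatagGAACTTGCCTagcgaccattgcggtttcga
Ccng1, chr11:40755442-40755491, minus strand: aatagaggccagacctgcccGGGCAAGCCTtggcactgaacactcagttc
Bax, chr7:45467070-45467119, minus strand: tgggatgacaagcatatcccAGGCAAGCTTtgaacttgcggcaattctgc
Trp53, chr11:69580264-69580313, plus strand: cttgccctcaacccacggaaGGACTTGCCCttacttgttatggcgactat
The Cdkn1a window held 2 half-sites 12 bases apart, 73 and 51 bases before the start, and 0.0731% of all windows held a pair with a spacer of at most 13 bases. The bases tgacatgttc, directly after the second half-site, depart from the motif only in their first letter. They were not counted as a match, and which of these bases p53 binds was not tested. The windows of Cdkn2a, Cdkn2b, Bbc3 and Gdf15, and the second window of Cdkn1a, held no match to these letters. Sites outside the windows or with a mismatch were not searched, so a window without a match does not show that p53 does not bind the gene.

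The inhibitor genes on chromosome 4 differ in base composition. The 80 bases before each start follow with the dinucleotide CG in capitals, the site of DNA methylation in mammals.
Cdkn2a, upstream start, which gives p19Arf, chr4:89294620-89294699, minus strand: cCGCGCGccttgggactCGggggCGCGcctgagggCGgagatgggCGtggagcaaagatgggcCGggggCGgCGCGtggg
Cdkn2a, downstream start, chr4:89282193-89282272, minus strand: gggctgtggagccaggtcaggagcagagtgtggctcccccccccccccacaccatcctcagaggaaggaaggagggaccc
Cdkn2b, chr4:89311033-89311112, minus strand: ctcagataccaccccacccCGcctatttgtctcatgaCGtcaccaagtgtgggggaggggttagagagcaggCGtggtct
Over the full windows the upstream Cdkn2a start held 45 CG, the downstream start 12 and the Cdkn2b start 18, against a median of 7 over all windows.

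Values are FPKM, fragments per kilobase of gene scaled to the fragments of the library, as deposited, and differences are on the log2(FPKM + 1) scale, which understates the change of low genes. Between 10312 and 14466 genes reached 1 FPKM per library, and the apparent depth lay between 4500000 and 12600000 fragments. In the XEN-like table fibroblast 1, colonies 1 to 3, the lines and eXEN came from flow cells with HVN codes, and fibroblast 2 and colonies 4 to 8 from flow cell HJMKLALXX. All 8 fibroblast markers were at 1 FPKM or more in each of the 5 fibroblast libraries, with a summed level of 3936 to 8835 FPKM, and all 8 endoderm markers were so in each of the 14 colony, line and eXEN libraries. A library labelled primary neurons, in the second neuronal table, went against its label: its astrocyte and oligodendrocyte markers summed to 3346 FPKM, its macrophage markers to 2460 and its neuron markers to 64.7, against 62.6, 61.3 and 818 in the other library of that label. The P24 library, labelled neuronal, held hepatocyte markers at 3289 FPKM in sum and neuron markers at 8.7. It is called the library labelled P24 below and enters no comparison.

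In XEN-like colonies the 3 CDK inhibitor genes were called lower than in fibroblasts, Cdkn2b with the largest difference. Cdkn2a had the smallest difference of them, and its call did not hold under every setting. The Cdkn2a and Trp53 levels of the groups overlapped. A gene was called when its adjusted p was under 0.05 and its log2 difference at least 1 in size. By this rule 3 of 9 genes fell and none rose, a share near the 34.6% called of all 14012 genes tested. The median difference of the 9 genes was -1.08, beside 0.155 over all genes.

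Cdkn1a was at 397 and 739 FPKM in the 2 fibroblast libraries, and over the 8 colonies it had a lowest level of 71.2, a median of 152 and a highest level of 194. Every colony was below both fibroblast libraries. The difference was -2.06 ± 0.41 (SE; 4.18-fold lower, limma adjusted p = 0.000893). On the HVN flow cells alone it was -1.65 and on flow cell HJMKLALXX alone -2.44, and both were called, with 1 fibroblast library in each. In these fits the single fibroblast library is assumed to vary like the other groups of its flow cell, as in every fit below with 1 library in a group.

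Cdkn2b, which encodes p15Ink4b, an inhibitor that transforming growth factor beta induces, was at 31.7 and 81.8 FPKM in fibroblasts and between 2.29 and 6.94 in the 8 colonies, with a median of 3.42. The groups did not overlap, and the difference of -3.51 ± 0.65 (SE) was an 11.4-fold lower level (limma adjusted p = 0.000561). It was -3.03 on the HVN flow cells and -3.93 on HJMKLALXX, again with 1 fibroblast library each and no spread of its own, and past the threshold in both.

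Cdkn2a was at 70.2 and 256 FPKM in fibroblasts and between 28.5 and 110 in the colonies, with a median of 60.8. Here the groups overlapped, since 2 of the colonies, at 99.8 and 110, were above the lower fibroblast library. The difference of -1.23 ± 0.42 (SE) was called in the fit over both flow cells (2.35-fold lower, limma adjusted p = 0.0285). On HJMKLALXX alone it was -1.87 and called, but on the HVN flow cells it was -0.53 (limma adjusted p = 0.518). Without fibroblast 2, on HJMKLALXX, it was again -0.53 (limma adjusted p = 0.525) and without colony 2 it was -1.11 (limma adjusted p = 0.0507). Without a term for the flow cell it was -1.13 (limma adjusted p = 0.0736).

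**Figure D1:**
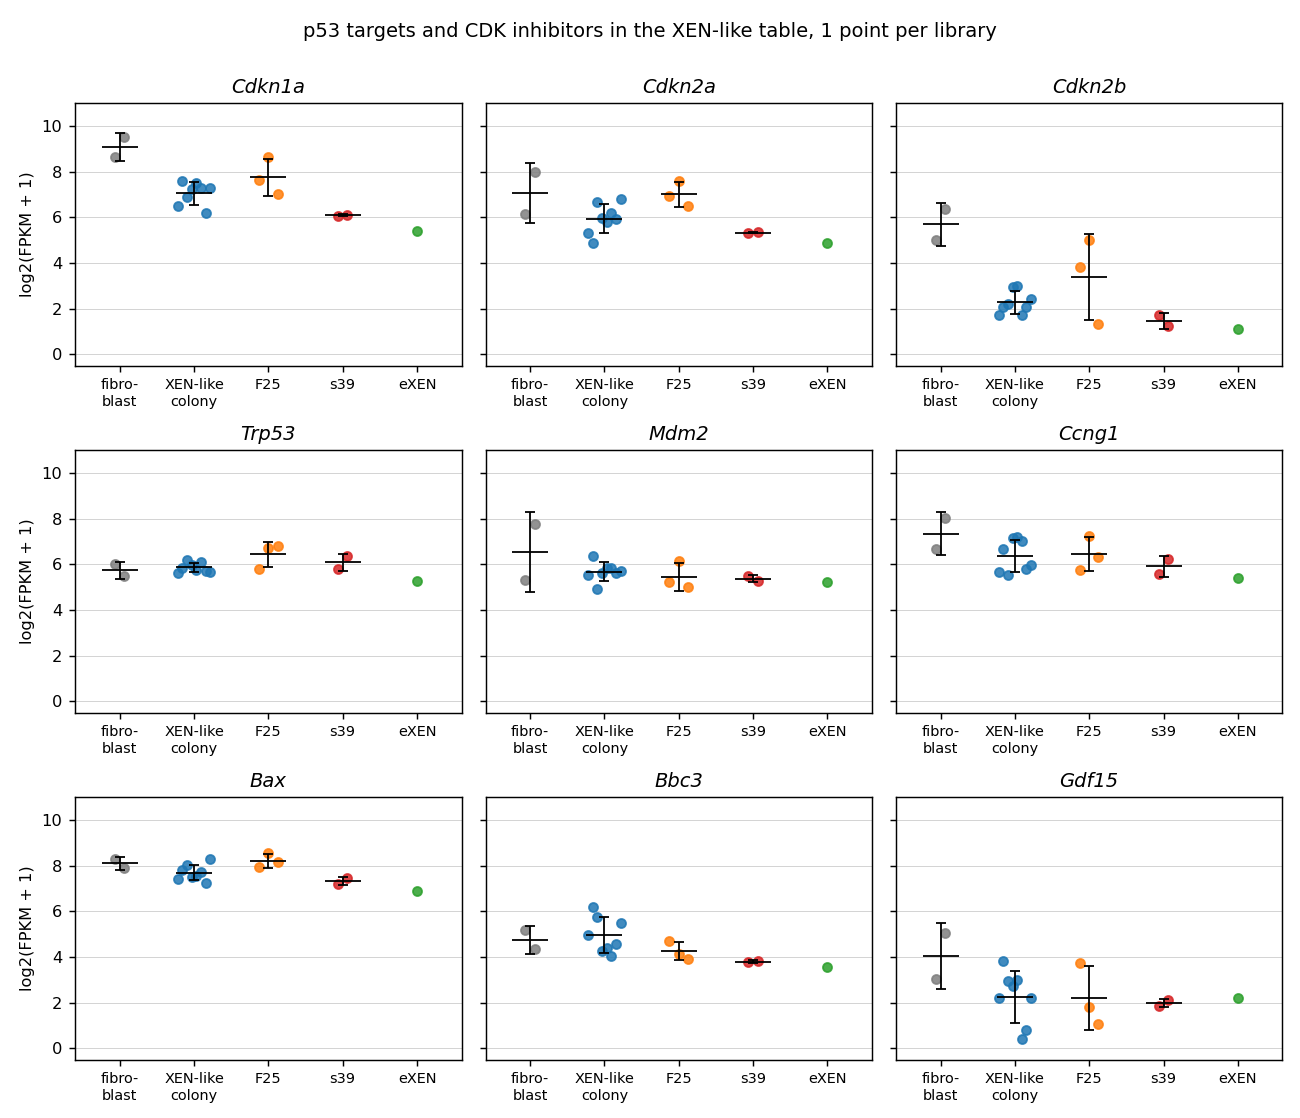
Level of each gene in the XEN-like table as log2(FPKM + 1), 1 point per library, with the mean and SD of each group as bars where it has more than 1 library. Cdkn1a and Cdkn2b show the 8 colonies below both fibroblast libraries, Cdkn2b of line F25 spreads from 1.49 to 31.6 FPKM, and Trp53 overlaps between fibroblasts and colonies.

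Trp53 was at 63.3 and 43.5 FPKM in fibroblasts and between 48.4 and 72.9 in the colonies, with a median of 54.8. The fitted difference was 0.15 with a 95% interval from -0.43 to 0.72 (limma adjusted p = 0.689), which lies within the threshold of 1 on both sides. Its sign turned with scaling of the libraries, as given below.

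Mdm2, the ligase of the feedback loop, was at 38.6 FPKM in fibroblast 1 and 219 in fibroblast 2, and between 29.4 and 82.0 in the colonies. Fibroblast 1 was inside the colony range and fibroblast 2 above it. The difference of -0.94 ± 0.45 (SE) was not called (limma adjusted p = 0.103). It was 0.30 on the HVN flow cells, with the opposite sign, and -2.05 on HJMKLALXX, where it was called (limma adjusted p = 0.00304).

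Ccng1 encodes cyclin G1, a p53 target that acts back on Mdm2. It was at 102 and 261 FPKM in fibroblasts and between 45.0 and 148 in the colonies, with 3 of the 8 colonies above fibroblast 1. The difference of -1.08 ± 0.45 (SE) was not called (limma adjusted p = 0.0651), and it was -0.73 and -1.40 on the HVN flow cells and on HJMKLALXX.

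Among the death genes, Bax, a pore-forming BCL2 protein, was at 314 and 240 FPKM in fibroblasts and between 151 and 315 in colonies. Bbc3, which encodes the BH3-only protein PUMA, was at 35.8 and 19.2 FPKM in fibroblasts and between 15.7 and 71.8 in colonies. Both genes overlapped between the groups, with differences of -0.38 (95% interval -0.95 to 0.18) for Bax and 0.32 (95% interval -0.43 to 1.08) for Bbc3, neither of them called. Gdf15, a stress-induced cytokine of the transforming growth factor beta family, was at 7.11 and 32.7 FPKM in fibroblasts and ranged from 0.33 to 13.1 in colonies. Its difference was -1.72 ± 0.82 (SE; limma adjusted p = 0.105), which was -0.03 on the HVN flow cells and -3.25 on HJMKLALXX. Without fibroblast 1, Mdm2 at -2.05 and Gdf15 at -3.25 were called (limma adjusted p = 0.00357 and 0.0245), and without colony 2, Mdm2 at -1.18 and Ccng1 at -1.27 were (limma adjusted p = 0.0235 and 0.0301). The larger differences on HJMKLALXX for Cdkn1a, Cdkn2a, Cdkn2b, Mdm2, Ccng1 and Gdf15 stand beside the higher levels of these 6 genes in fibroblast 2, the fibroblast library of that flow cell. In colonies 1 to 3, and then in colonies 4 to 8, Mdm2 was at 29.4 to 82.0 and 47.8 to 57.0 FPKM. In the same order Gdf15 was at 3.58 to 13.1 and 0.33 to 7.01, and Cdkn1a at 88.9 to 194 and 71.2 to 179. Cdkn2a was at 28.5 to 99.8 and 55.1 to 110. Cdkn2b was at 2.33 to 3.56 and 2.29 to 6.94, and Ccng1 at 45.0 to 102 and 55.1 to 148. The part of the flow cell in these levels was not tested.

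Scaling the libraries by median ratios moved the median difference of all genes between colonies and fibroblasts from 0.155 to -0.015 and that between lines and fibroblasts from 0.195 to -0.056. Relative to the shifted median, 5 of the 9 genes were called in colonies, Mdm2 at -1.15 (limma adjusted p = 0.0327) and Ccng1 at -1.29 (limma adjusted p = 0.024) being added, and Trp53 was at -0.06. In the lines Gdf15 was added, at -2.46 (limma adjusted p = 0.0444). These are bulk libraries, in which fewer cells of a type and less RNA per cell cannot be told apart.

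The established lines were also lower than fibroblasts in Cdkn1a and Cdkn2b, and Bbc3 was called lower in them as well. Of the 9 genes 3 fell and none rose, a share near the 33.8% of 14012 genes called in that comparison. The median difference was -0.82 beside 0.195 over all genes. Colonies and lines were set against the same 2 fibroblast libraries.

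Cdkn1a was at 197, 395 and 128 FPKM in F25 at passages 5, 8 and 13 and at 68.9 and 66.0 in s39 at passages 3 and 17. The highest of these, F25 at passage 8, was just under the lower fibroblast library at 397, so the groups did not overlap. The difference was -2.02 ± 0.46 (SE; limma adjusted p = 0.00311), and -1.71 on the HVN flow cells, to which all line libraries belong.

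Cdkn2b was at 13.2, 31.6 and 1.49 FPKM in F25 and at 1.34 and 2.26 in s39. F25 at passage 8 lay just under the lower fibroblast library at 31.7, and F25 at passage 13 was as low as s39. The difference was -2.96 ± 0.74 (SE; limma adjusted p = 0.00566), and on the HVN flow cells it was -2.60 and not called (limma adjusted p = 0.0655).

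Bbc3 was at 24.9, 16.8 and 14.3 FPKM in F25 and at 13.3 and 12.6 in s39, all but the first below both fibroblast libraries. Its difference of -1.26 ± 0.40 (SE; limma adjusted p = 0.022) includes a correction for the flow cell. Without that term it was -0.74 (limma adjusted p = 0.271), and without fibroblast 1 or fibroblast 2 it was -1.39 or -1.17, with limma adjusted p = 0.105 or 0.0869. On the HVN flow cells alone it was -1.17 (limma adjusted p = 0.0506).

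Cdkn2a, in contrast, was at 122, 193 and 89.8 FPKM in F25, inside the range of the 2 fibroblast libraries, and at 39.8 and 39.1 in s39, below both. The difference of -0.50 (95% interval -1.53 to 0.52) was not called, and on the HVN flow cells it was 0.02. Mdm2 and Gdf15 were at -0.82 and -2.20 and not called (limma adjusted p = 0.217 and 0.0767), and Mdm2 was at 0.11 on the HVN flow cells. Without fibroblast 1 both were called, at -2.25 for Mdm2 and -4.15 for Gdf15 (limma adjusted p = 0.00914 and 0.0238), and without F25 at passage 5 Gdf15 was called at -2.59 (limma adjusted p = 0.032). Trp53 lay between 55.2 and 112 FPKM in the 5 line libraries.

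**Figure D2:**
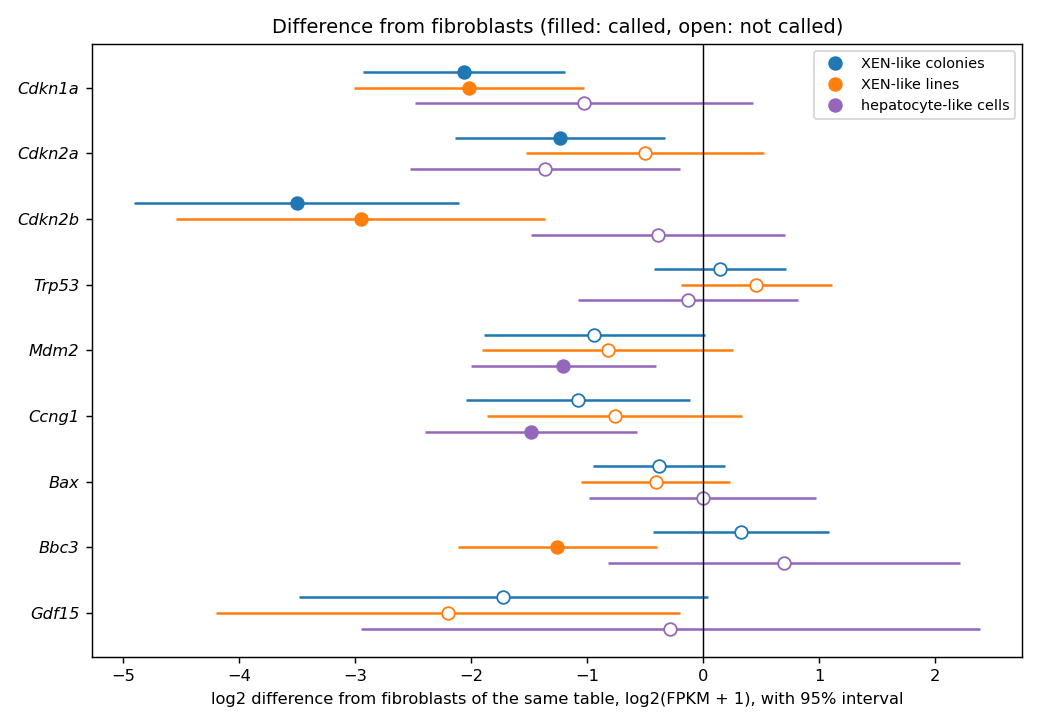
Difference of each gene from the fibroblasts of its own table on the log2(FPKM + 1) scale, for colonies, lines and hepatocyte-like cells, with the 95% interval of the limma fit as bars and filled points where the gene was called. Cdkn1a and Cdkn2b are called lower in both XEN-like groups, and Mdm2 and Ccng1 in hepatocyte-like cells.

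Between lines and colonies none of the 9 genes was called, where limma called 0.0856% of 14012 genes and found 1920 at an unadjusted p under 0.05. One of the 9, Bbc3, had an unadjusted limma p under 0.05. Its colony levels had a median of 26.5 FPKM and a highest of 71.8, and its difference of -1.58 ± 0.31 (SE) had a limma adjusted p of 0.0839. Without colony 6 or colony 8, or on the HVN flow cells alone, it was called, at -1.60, -1.55 and -1.61. Cdkn2a was higher in the lines by 0.73 without being called (95% interval -0.07 to 1.53).

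Between F25 and s39 none of the 9 genes was called either. All 3 F25 libraries were above both s39 libraries in Cdkn1a, Cdkn2a, Bax and Bbc3, whereas Cdkn2b overlapped, with F25 at passage 13 (1.49 FPKM) below s39 at passage 17 (2.26). Trp53, Mdm2, Ccng1 and Gdf15 overlapped as well. The share of all genes that separate the lines in this way is not given here. The differences of F25 from s39 were 1.66 ± 0.47 (SE) for Cdkn1a, 1.68 ± 0.49 for Cdkn2a, 1.93 ± 0.75 for Cdkn2b and 0.88 ± 0.30 for Bax. Of the 9 genes 4 had an unadjusted limma p under 0.05 and none was called, with limma adjusted p from 0.172 to 0.331 in these 4. Over all 14012 genes limma called 0.214% and found 1594 at an unadjusted p under 0.05. Without F25 at passage 13, Cdkn1a and Cdkn2b were called, at 2.03 and 2.96 (limma adjusted p = 0.0451 and 0.00676).

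F25 was not uniform. Its fibroblast markers summed to 127 FPKM at passage 5, 352 at passage 8 and 1.5 at passage 13, with 6, 6 and 0 of 8 markers at 1 FPKM or more. The corresponding sums were 9.3 and 5.7 in s39 and 14.9 to 51.0 in the colonies. The sums were 7257 and 8835 in the fibroblast libraries of that table. Cdkn2b was at 13.2, 31.6 and 1.49 FPKM in F25 at passages 5, 8 and 13. The part of residual fibroblasts in these levels was not tested. A slope on passage number within the 2 lines was called for none of the 9 genes and for 0% of 12400 genes, with 90 genes and none of the 9 at an unadjusted limma p under 0.05. A difference by passage was thus not detectable with 5 libraries.

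The eXEN library had the lowest level of the table in Cdkn1a (41.8 FPKM), Cdkn2b (1.15), Trp53 (37.4), Ccng1 (41.1), Bax (118) and Bbc3 (10.8). Its Cdkn2a level of 28.8 FPKM was just above the lowest colony at 28.5. Mdm2 at 36.5 and Gdf15 at 3.67 FPKM lay inside the range of the colonies. A single library allows no test. The share of all genes lowest in eXEN is not given here, so these ranks do not set the members apart.

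Other genes of the pathway moved in both directions. Of 28 further p53 targets 25 were tested in colonies against fibroblasts, and 2 rose and 4 fell, with a median of -0.34 beside 0.155 over all genes. Over all genes 34.6% were called in colonies and 33.8% in lines, 2497 and 2674 of the 14012 higher and 2357 and 2067 lower, and the counts of the lists are to be read beside these shares. In the lines 2 fell and 1 rose, the exonuclease gene Aen, whose difference of 1.01 (limma adjusted p = 0.0329) just passed and was not called after median-ratio scaling, without the flow cell term, or without fibroblast 1, s39 at passage 3, F25 at passage 8 or F25 at passage 13. Ak1, an adenylate kinase, was at 10.3 ± 5.44 FPKM (SD, n = 8) in colonies and 206 ± 23.97 (n = 2) in fibroblasts, a difference of -4.35 (limma adjusted p = 5.19e-05). The death receptor gene Fas was at 1.52 ± 1.78 and 30.6 ± 12.99 FPKM, a difference of -3.93 (limma adjusted p = 9.46e-05). Both also fell in the lines, by 4.04 and 3.16. Phlda3, a target that restrains the kinase Akt, was at 131 ± 50.8 FPKM in colonies and 188 ± 55.1 in fibroblasts and was not called. Of the 13 tested regulators of p53, 6 rose and none fell in colonies, and 4 rose in lines, the latter a share near that of all genes. They included Ppm1d, the phosphatase that switches p53 signalling off, at 30.1 ± 9.48 FPKM in colonies against 5.56 ± 1.401 in fibroblasts (limma adjusted p = 4.59e-05), and the checkpoint kinase gene Chek2 at 19.0 ± 4.64 against 5.85 ± 0.20 (limma adjusted p = 7.83e-05).

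Among 8 other CDK inhibitors and pocket proteins, 2 rose and 1 fell in colonies. The fall was in Cdkn2d, which encodes p19Ink4d and was at 12.1 ± 3.67 FPKM in colonies against 31.7 ± 0.76 in fibroblasts (limma adjusted p = 0.00168; not called on HJMKLALXX alone). Of 18 regulators of the Cdkn2a and Cdkn2b locus, 5 rose and 1 fell in both colonies and lines, close to the shares of all genes called, so that the count sets the list apart in neither. The Polycomb methyltransferase gene Ezh2, whose complex silences the locus in young fibroblasts, was at 47.4 ± 17.3 FPKM in colonies and 12.05 ± 0.28 in fibroblasts (limma adjusted p = 5.63e-05). The histone demethylase gene Kdm2b was at 35.5 ± 11.4 against 7.97 ± 0.75 FPKM (limma adjusted p = 7.73e-05) and the Polycomb ligase gene Rnf2 at 67.6 ± 10.8 against 21.3 ± 2.69 (limma adjusted p = 5.72e-05). Ets1, an activator of Cdkn2a in human fibroblasts, was the gene that fell, from 22.7 ± 2.32 to 2.45 ± 1.24 FPKM (limma adjusted p = 1.53e-05). Only 6 of the 18 genes were called in colonies. The part of any of them in the Cdkn2a and Cdkn2b levels was not tested.

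Of 11 tested BCL2 family genes, 1 rose and 2 fell in colonies, a share no higher than that of all genes, among them the Bax relative Bok, from 13.03 ± 2.05 to 2.97 ± 1.75 FPKM (limma adjusted p = 0.00161). Of 11 tested stress genes other than p53 targets, 4 fell and none rose, including the heme oxygenase gene Hmox1, from 255 ± 154 to 42.0 ± 23.4 FPKM (limma adjusted p = 5.11e-05). In the list of senescence-associated secretion and nuclear lamina, 17 of 21 genes fell and 2 rose in colonies and the same counts held in lines, with medians of -4.76 and -4.16. The matrix protease gene Mmp3 was at 814 ± 265 FPKM in fibroblasts and 0.20 ± 0.16 in colonies (limma adjusted p = 5.21e-12). Fibroblasts express many genes of this list without senescence, and the summed fibroblast markers stood at 7257 and 8835 FPKM in fibroblasts and at 14.9 to 51.0 in colonies, with 3 to 7 of 8 at 1 FPKM or more. The part of that difference in the list was not tested. All 12 proliferation genes rose in colonies and in lines, for example the mitotic cyclin gene Ccnb1 from 8.98 ± 1.12 to 109 ± 19.5 FPKM (limma adjusted p = 3.25e-08) and the replication helicase gene Mcm5 from 4.02 ± 2.77 to 49.3 ± 11.3 (limma adjusted p = 1.22e-06). None of these 8 lists had a called gene between lines and colonies.

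Across the 13 colony and line libraries, the genes most like Cdkn1a by Pearson correlation of log2(FPKM + 1) were Ak1 (r = 0.93), Ptp4a3 (r = 0.90) and Ubtd1 (r = 0.89), out of 8690 genes with a mean of at least 5 FPKM. Ak1 and Ptp4a3, a phosphatase gene, are on the list of p53 targets, which was chosen with earlier results of these data known. The share of that list among the 8690 genes is not given here. The genes most like Cdkn2a were Aes, Ethe1 and Rnf187 (r = 0.92, 0.92 and 0.91), and those most like Gdf15 were Cd68, Hilpda and Anxa4 (r = 0.92, 0.89 and 0.87). These libraries share lines, flow cells and depth, and 2 of them hold more fibroblast markers than the rest, so the values describe the libraries and no test is attached to them.

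In hepatocyte-like cells Mdm2 and Ccng1 were called lower than in the fibroblasts of the same table, and no other member was called. Of the 9 genes 2 fell and none rose, a share no higher than the 26.3% called of 15657 genes. The median difference was -0.39 beside 0.077 over all genes. Cdkn2a, at -1.37, had a difference larger in size than that of Mdm2, at -1.21, without being called.

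Mdm2 was at 54.4, 33.9, 54.0 and 49.99 FPKM in hepatocyte-like cells and 135 and 90.4 in fibroblasts, without overlap (difference -1.21 ± 0.35 SE, limma adjusted p = 0.0317). Ccng1 was at 84.5, 45.2, 58.6 and 53.3 FPKM against 210 and 132, again without overlap (-1.49 ± 0.41 SE, limma adjusted p = 0.0229). On flow cell HH2TTALXX alone, which held hepatocyte-like libraries 3 and 4 and both fibroblast libraries, the differences were -1.07 and -1.56 and both were called. Neither call held without fibroblast 1 (-0.92 and -1.16, limma adjusted p = 0.289 and 0.234) or without fibroblast 2 (-1.49 and -1.82, limma adjusted p = 0.0949 and 0.0721), and that of Mdm2 did not hold without hepatocyte-like library 2 (-1.05, limma adjusted p = 0.0568).

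Cdkn1a was at 206, 172, 205 and 357 FPKM in hepatocyte-like cells, all below the 531 and 402 of the fibroblasts, with a difference of -1.03 (95% interval -2.49 to 0.43) that was not called. Cdkn2a was at 158, 132, 56.0 and 76.1 FPKM against 444 and 143, overlapping in 1 library. Its difference of -1.37 ± 0.52 (SE) was not called (limma adjusted p = 0.0794), and was -1.93 on flow cell HH2TTALXX and -2.18, called, without fibroblast 2 (limma adjusted p = 0.0419). Cdkn2b, the gene with the largest fall in XEN-like colonies, was at 56.5, 90.2, 28.2 and 37.7 FPKM in hepatocyte-like cells and 96.9 and 41.7 in fibroblasts, so that the groups overlapped. The table of XEN-like cells was normalized separately, and the difference between these contrasts was not tested.

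Trp53 lay between 23.1 and 42.0 FPKM in hepatocyte-like cells and Bax between 188 and 424, both overlapping with fibroblasts. Bbc3 was at 25.3, 22.3 and 24.2 FPKM in 3 of the hepatocyte-like libraries and at 65.6 in the fourth. Gdf15 was at 27.3 and 34.9 FPKM in hepatocyte-like libraries 1 and 2 and at 4.49 and 1.31 in libraries 3 and 4, on both sides of the fibroblasts at 13.4 and 10.7. Libraries 1 and 2 also had the higher sums of hepatocyte markers, 7775 and 6918 FPKM against 1464 and 2271, and came from other flow cells than 3 and 4. The part of either in the Gdf15 levels was not tested. Fibroblast 2 of this table held macrophage markers at 898 FPKM in sum, against 145 in fibroblast 1.

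Of the 28 further p53 targets, 6 rose and 5 fell in hepatocyte-like cells against fibroblasts, where 26.3% of all 15657 genes were called, 1779 higher and 2344 lower. Ak1 fell, from 155 ± 37.8 (SD, n = 2) to 7.56 ± 6.99 FPKM (n = 4; limma adjusted p = 0.000397), and so did Ptp4a3, from 30.5 ± 10.8 to 2.41 ± 1.08 (limma adjusted p = 0.000232). Sfn, which encodes the epithelial 14-3-3 sigma protein, rose from 0.34 ± 0.20 to 17.3 ± 6.08 FPKM (limma adjusted p = 6.28e-05). Perp, a gene of desmosomes, rose from 26.1 ± 23.97 to 173 ± 69.4 FPKM (limma adjusted p = 0.00384), a call that ended without fibroblast 2. Among the other CDK inhibitors, the imprinted gene Cdkn1c, which encodes p57, rose from 19.6 ± 0.19 to 275 ± 77.4 FPKM (limma adjusted p = 5.68e-05) and Cdkn2c fell from 15.7 ± 2.78 to 1.44 ± 1.66 (limma adjusted p = 0.00521; not called without fibroblast 1). None of the 12 proliferation genes was called, and their median difference was 0.52.

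Against liver the 3 inhibitor genes and Mdm2, Ccng1 and Bax were higher in hepatocyte-like cells, while Gdf15 was called in neither comparison. Of the 9 genes 8 were higher in hepatocyte-like cells than in hepatocytes and 7 higher than in hepatic tissue. Over all genes 48.9% and 50.2% were called in these comparisons, 6468 and 6624 of them higher and 1181 and 1243 lower. The median difference of all genes was 0.937 and 0.957, and the members are read relative to it. After scaling by median ratios the medians were 0.034 and 0.026, and 6 of the 9 genes were called in each comparison. Endoderm markers summed to 3948 to 8260 FPKM in the hepatocyte-like libraries and to 241 to 473 in the liver libraries. Hepatocyte markers summed to 1464 to 7775 FPKM in the former and to 30947 to 75238 in the latter. The part of these differences in the member levels was not tested.

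Cdkn2a was listed at 0 in both hepatocyte libraries and both tissue libraries, beside 56.0 to 158 FPKM in hepatocyte-like cells (limma adjusted p = 1.55e-05 and 1.68e-05), and no fold is given. Cdkn2b was listed at 0 and 0.09 FPKM in hepatocytes and 0.18 and 0 in tissue, beside 28.2 to 90.2 (limma adjusted p = 2.76e-05 and 3.27e-05). The 3 inhibitor genes were called in both comparisons with and without scaling.

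Cdkn1a was at 5.68 and 0.45 FPKM in hepatocytes and at 1.00 and 5.68 in tissue, beside 172 to 357. The differences were 6.19 ± 0.65 (SE; limma adjusted p = 7.9e-05) and 5.96 ± 0.65 (limma adjusted p = 0.000104), and 5.09 and 4.77 after scaling. Mdm2 was at 4.23 and 9.86 FPKM in hepatocytes and 3.53 and 3.51 in tissue (differences 2.68 and 3.42, or 1.46 and 2.18 after scaling). Ccng1 was at 2.91 and 8.48 in hepatocytes and 5.15 and 3.90 in tissue (differences 3.30 and 3.44, or 2.10 and 2.19 after scaling). Bax was at 23.8 and 35.3 FPKM in hepatocytes and 61.6 and 24.8 in tissue (differences 3.30 and 2.88, or 2.00 and 1.51 after scaling). Each of these 4 genes was called in both comparisons with and without scaling. Their levels in hepatocyte-like cells did not overlap with either liver group, and neither did those of Cdkn2a, Cdkn2b, Trp53 and Bbc3. The share of all genes without overlap is not given here.

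Trp53 was at 6.56 and 9.38 FPKM in hepatocytes and 14.9 and 5.38 in tissue, with differences of 1.89 and 1.70 (limma adjusted p = 0.00477 and 0.00777). After scaling these were 0.65 and 0.41 and not called. The call against hepatocytes was lost without hepatocyte 1 (1.66, limma adjusted p = 0.0509) and that against tissue without tissue 2 (1.05, limma adjusted p = 0.0943). Bbc3 was at 4.52 and 10.4 FPKM in hepatocytes and 21.6 and 3.49 in tissue. Its difference of 2.01 from hepatocytes was called (limma adjusted p = 0.0316), with 0.79 after scaling, 1.49 without hepatocyte 1 and 1.65 without hepatocyte-like library 4, none of which was called. Its difference of 1.66 from tissue was not called (limma adjusted p = 0.0624), except without tissue 1, at 2.83 (limma adjusted p = 0.011). Gdf15 was at 2.86 and 15.1 FPKM in hepatocytes and 13.9 and 1.29 in tissue, inside the range of the hepatocyte-like cells, and its differences of 0.44 and 0.87 had intervals from -2.24 to 3.11 and from -1.80 to 3.54. Between hepatocytes and tissue none of the 9 genes was called, and limma called 0.00639% of all genes between them, with 334 genes and none of the 9 at an unadjusted p under 0.05. All 4 liver libraries came from 1 flow cell of their own, so flow cell and liver origin cannot be told apart.

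Of the 28 further p53 targets 19 were higher and none lower in hepatocyte-like cells than in hepatocytes, with a median of 2.04, and 9 of 12 proliferation genes were higher, with a median of 2.51. Over all 15657 genes 48.9% were called, 6468 of them higher, and the median was 0.937.

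**Figure D3:**
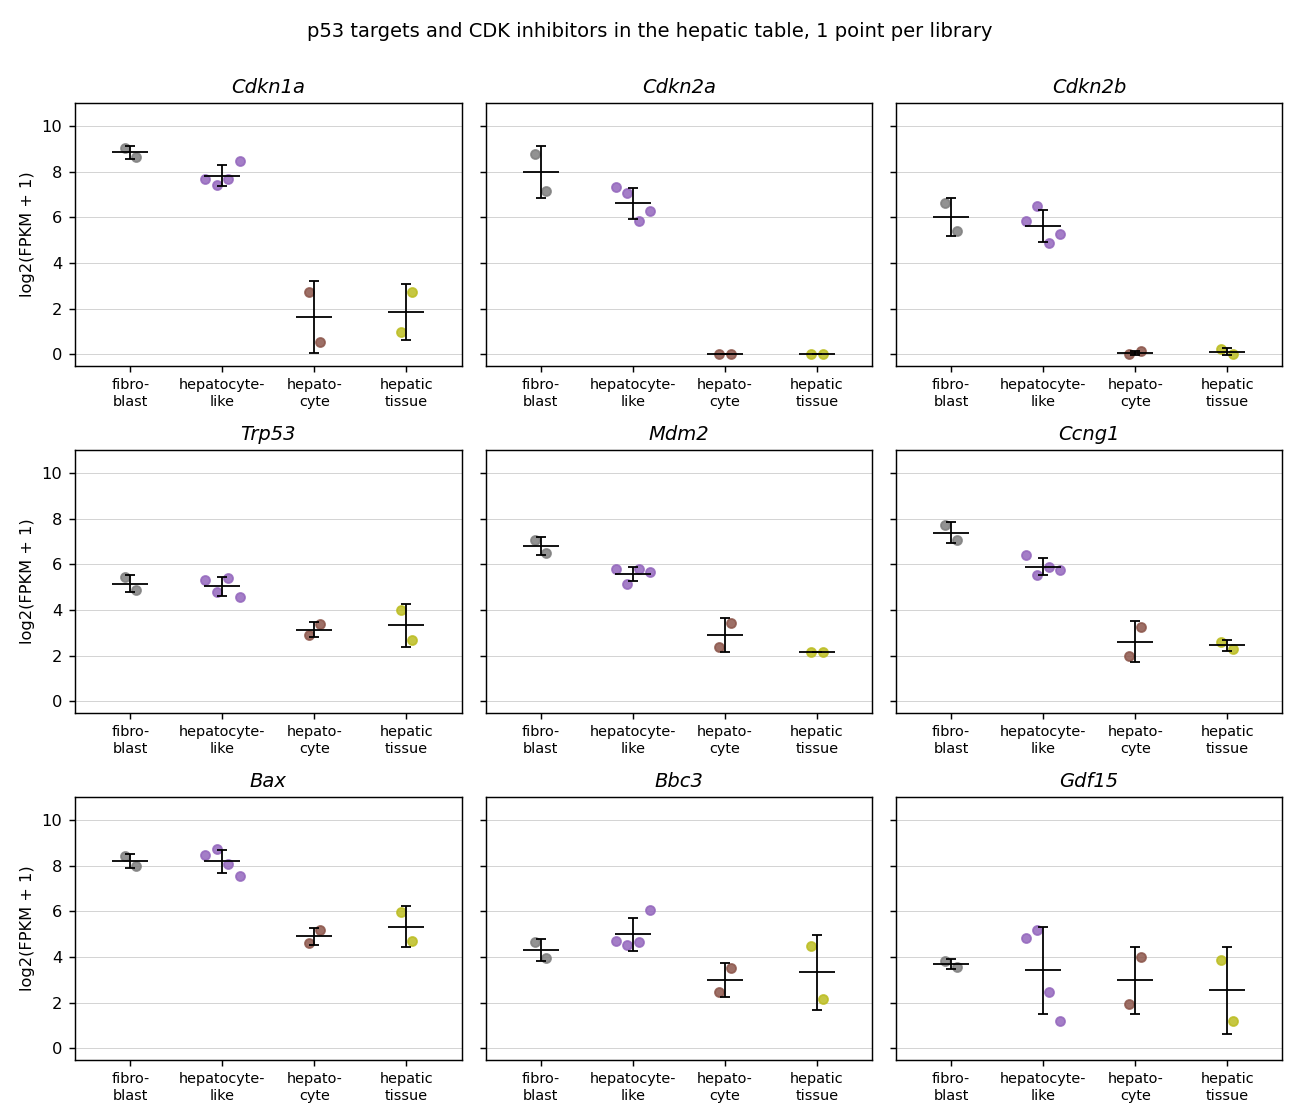
Level of each gene in the hepatic table as log2(FPKM + 1), 1 point per library, with the mean and SD of each group as bars. Cdkn2a is at 0 in all 4 liver libraries and at 56.0 to 158 FPKM in hepatocyte-like cells, while Gdf15 overlaps among the groups.

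In the neuronal tables the inhibitors were high in the induced cells and low in brain and in the library of primary neurons that had neuron markers. In the first table Cdkn2a was at 163 FPKM in fibroblasts, 463 in TauEGFP colonies and 1077 in FICB cells, the highest deposited value of any of the 9 genes, although the tables were normalized separately. It was at 0.15 FPKM in brain and listed at 0 in primary neurons. Cdkn1a was at 461, 563 and 645 FPKM in fibroblasts, TauEGFP colonies and FICB cells, and at 25.4 and 11.5 in brain and primary neurons.

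With 1 library a group these contrasts carry no test, and a gene was counted when its log2 difference was at least 1 in size. Of the 9 genes 2 passed this size between TauEGFP colonies and fibroblasts, where 33.8% of 15010 genes did: Cdkn2a was higher by 1.498 and Trp53 lower, at 31.5 FPKM beside 111, by a difference of -1.79. Between FICB cells and fibroblasts 6 passed, where 27.1% of 13778 genes did. There Cdkn2a was higher by 2.71, Cdkn2b (165 beside 78.5 FPKM) by 1.07, Mdm2 (188 beside 77.9) by 1.26 and Ccng1 (280 beside 139) by 1.01, while Trp53 (43.1 beside 111) and Gdf15 (4.21 beside 18.9) had differences of -1.34 and -1.93. Between brain and primary neurons 2 of the 7 genes at 1 FPKM or more passed, Cdkn1a at 1.08 and Trp53 at -2.03, where 25.5% of 15131 genes did. Cdkn2a and Gdf15 were under 1 FPKM in both of these libraries.

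TauEGFP colonies and FICB cells still held all 8 fibroblast markers at 1 FPKM or more. Their sums were 1476 and 3868 FPKM in TauEGFP colonies 1 and 2 and 2288 in FICB cells, against 4831 in the fibroblasts of the first table, and their neuron marker sums were 600, 752.5 and 291 against 818 in primary neurons 1. In TauEGFP colonies, FICB cells and fibroblasts of the first table, Cdkn2a was at 463, 1077 and 163 FPKM. In the same order Cdkn1a was at 563, 645 and 461, and Cdkn2b at 53.1, 165 and 78.5. The part of remaining fibroblasts in the inhibitor levels was not tested.

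TauEGFP colonies were compared with primary neurons over both neuronal tables, with the table as a block. None of the 9 genes was called, and limma called 0% of 13625 genes, with 750 genes and 3 of the 9 at an unadjusted p under 0.05. Cdkn2a was at 463 and 327 FPKM in TauEGFP colonies and at 0 and 37.9 in the libraries labelled primary neurons, higher in both tables. The within-table differences were 8.86 and 3.08, the first of them against a level listed at 0. Ccng1 was at 113 and 175 FPKM beside 5.34 and 96.8, with a fitted difference of 2.51 ± 0.94 (SE, limma adjusted p = 0.875). Mdm2 was at 81.3 and 80.4 FPKM beside 21.7 and 33.0, with 1.56 ± 0.58 (SE, limma adjusted p = 0.875). Cdkn1a and Cdkn2b differed by 5.49 and 4.79 in the first table but by 0.65 and 0.02 in the second, whose library labelled primary neurons held glial and macrophage markers and had Cdkn1a at 181 FPKM and Cdkn2b at 36.8.

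**Figure D4:**
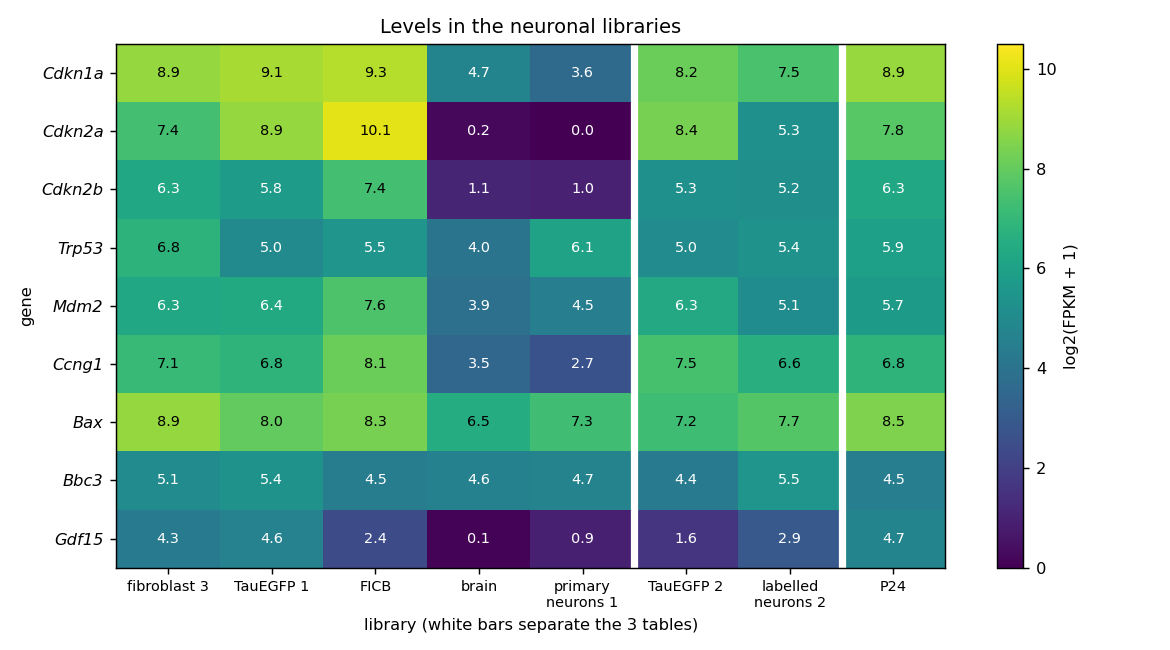
Level of each gene in the 8 neuronal libraries as log2(FPKM + 1), printed in each cell, with white bars between the 3 tables, which were normalized separately. Cdkn2a reaches 1077 FPKM in FICB cells and is at 0.15 and 0 in brain and primary neurons 1.

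The library labelled P24, with its hepatocyte markers, had Cdkn1a at 471 FPKM, Cdkn2a at 219, Cdkn2b at 75.6 and Gdf15 at 25.6. No other library shares its table, so these levels were compared with none.

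The 2 neighbouring genes on chromosome 4 did not keep a constant ratio. Within a library, the level of Cdkn2a was 2.22 and 3.13 times that of Cdkn2b in the fibroblasts of the XEN-like table, and 4.58 and 3.44 times in those of the hepatic table. It was 7.94 to 31.5 times in the 8 colonies, 9.21, 6.10 and 60.3 times in F25 at passages 5, 8 and 13, 29.8 and 17.3 times in s39 at passages 3 and 17, and 25.02 times in eXEN. Every colony and line library was thus above all 5 fibroblast libraries in this ratio. In hepatocyte-like cells it was 1.46 to 2.80, below both fibroblast libraries of that table. In TauEGFP colonies it was 8.71 and 8.75 and in FICB cells 6.51, beside 2.08 in the fibroblasts of the first neuronal table. The ratios of F25 at passage 13, s39 and eXEN rest on Cdkn2b levels near 1 to 2 FPKM and carry the counting error of those low levels. They are ratios of the levels given above and add no independent measurement.

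**Figure D5:**
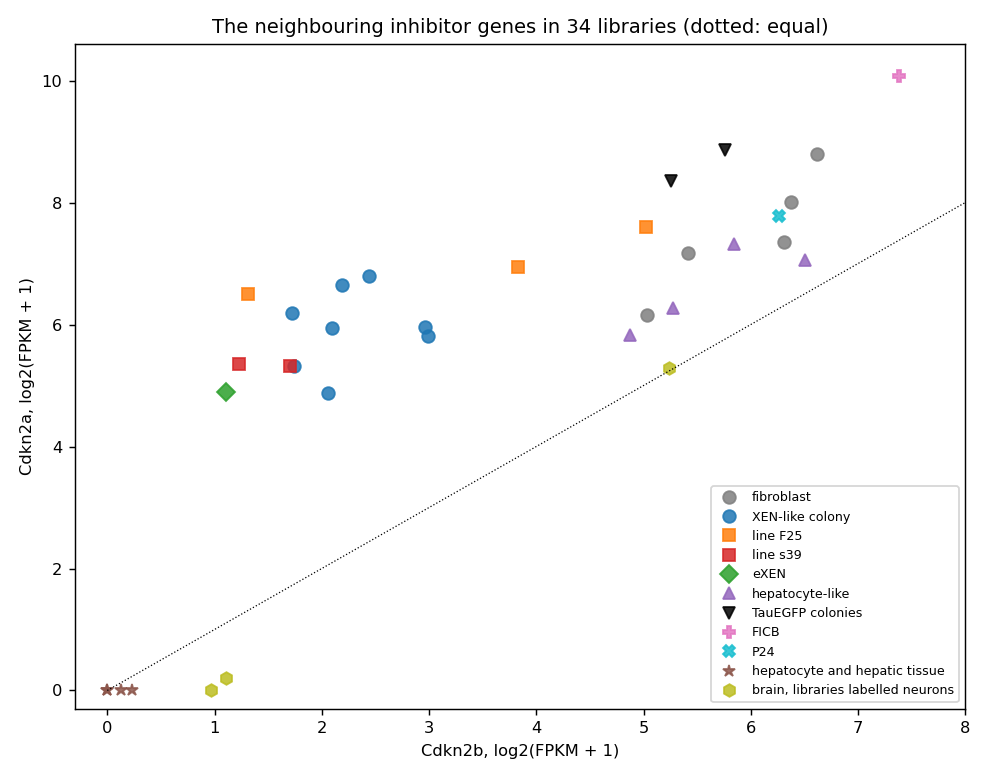
Cdkn2a against Cdkn2b as log2(FPKM + 1) in the 34 libraries, 1 point per library, with the dotted line where both are equal. Colonies, s39 and eXEN sit far to the left of the fibroblasts at Cdkn2a levels between 28.5 and 110 FPKM, hepatocyte-like cells lie near the fibroblasts, and the 4 liver libraries lie near the origin.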

How the data were processed

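RNA sequencing of poly-A RNA from 34 libraries was used as FPKM values deposited by the authors in 5 tables. 1 table names the unit in its header, and the values of the other 4 were taken to share it. Per the submitters' processing notes, TopHat2 and the build mm10 were used, and the version, counting tool and annotation are not given in the sources used here. Positions come from GENCODE vM21. Total counts are not given in the tables, and the apparent depth, estimated from the lowest values of single-exon genes, carries an uncertainty of 2 times, and counting intervals were not computed.

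Groups and passages follow the labels. The members and gene lists were chosen with earlier results of these data known. Genes at 1 FPKM or more in at least 2 libraries of the fit were fitted as log2(FPKM + 1) with limma 3.58.1 in R 4.3.3 (empirical Bayes with trend, two-sided, Benjamini-Hochberg adjustment over all genes tested). The XEN-like table was 1 model of 16 libraries with a flow cell term (HJMKLALXX against HVN codes), the lines being the mean of F25 and s39. The hepatic table was 1 model of 10 libraries without that term. Passage was a slope per 10 passages within line. The code was tested on simulated data.

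All members are named. From each list, called genes with the largest differences and uncalled genes with the highest levels could be named, and which of them are printed was chosen after their values were seen. Genes like Cdkn1a, Cdkn2a and Gdf15 are the 3 with the highest correlations. The numbers of fibroblasts and colonies do not pair them, since the labels give the same libraries other numbers for another figure. Alternatives were another pseudocount (0.1), no filter, median-ratio scaling, leaving out each library, no flow cell term, single flow cells and the block. 1 gene of a list is not reported here.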

Additional observations from a re-analysis of the deposited data

Results flagged for a closer look

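Bbc3 in hepatocyte-like library 4 stood at 65.5509 FPKM, far above the other 3 hepatocyte-like libraries between 22.3 and 25.3. It was picked out because its gap to the nearest library was 0.886 of the whole range of the group on the log2(FPKM + 1) scale, above the limit set for 4 libraries. Among 18 sets of values examined (9 genes in the colonies and in the hepatocyte-like cells) it was the only one beyond the limit, and chance alone picks about 1 in 20. The same library had the highest Cdkn1a level of its group, 357 FPKM, and the lowest Gdf15 and Bax levels, 1.31 and 188 FPKM. It also had the highest sum of endoderm markers of its group, 8260 FPKM. The part of these in the Bbc3 level was not tested.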

How the results depend on the processing

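The counts of called genes among the 9 were recomputed under each alternative. Between colonies and fibroblasts 3 were called, 5 with median-ratio scaling and 5 on HJMKLALXX alone, and 2 to 5 when single libraries were left out. Nothing in the labels but their numbers links fibroblasts and colonies. Same-numbered libraries deviated from their group means with r = 0.26 and -0.20 over 14012 genes. With 2 fibroblast libraries these deviations mirror each other, so the values cannot show whether the libraries were paired. With the number as a replicate block (fibroblasts and colonies 1 and 2) 2 were called, without Cdkn2a (-1.98, limma adjusted p = 0.0585). In that fit the named list genes Cdkn2d and Hmox1 were not called, Trp53 was at -0.0091, and over all genes 2874 of 12735 were called. The block fit had no flow cell term, and its second block joined fibroblast 2 from HJMKLALXX with colony 2 from an HVN flow cell. Between lines and fibroblasts 3 were called, 1 on the HVN flow cells and 2 to 4 without single libraries. Lines against colonies had 0, 1 on the HVN flow cells and 0 to 1 without single libraries, and F25 against s39 had 0 and 0 to 2. Hepatocyte-like cells against fibroblasts had 2 and 0 to 2, and against hepatocytes and tissue 8 and 7, each 6 to 8 without single libraries and 6 with scaling. Signs that turned were those of Trp53 in colonies (-0.0633 with scaling, -0.12 on HVN flow cells), Mdm2 in colonies and lines (0.30 and 0.11 on HVN flow cells), Cdkn2a in lines (0.0227 there) and Gdf15 against hepatocytes and tissue (-0.67 and -0.22 with scaling), and none of these was called in the fit reported or with the turned sign. Without single libraries the ranges that crossed 0 were -0.12 to 0.38 for Trp53 and -2.05 to 0.30 for Mdm2 in colonies, -1.31 to 0.0227 for Cdkn2a and -2.25 to 0.11 for Mdm2 in lines, and -0.60 to 1.47 and -0.48 to 2.22 for Gdf15 against hepatocytes and tissue. The cause was not tested. For TauEGFP colonies against primary neurons no library could be left out, since no residual degrees of freedom would remain, and without the replicate block again none of the 9 was called. Of the named list genes called in colonies, lines and hepatocyte-like cells against fibroblasts, 12 of 14, 2 of 3 and 4 of 6 kept their call under every alternative run. Depth limits levels near 0, such as those of Cdkn2b in XEN-like lines.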
